A study of Mus musculus with 6 samples.

Results

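The subject is a class of genes rather than a pathway: predicted mouse gene models, which carry a provisional symbol made of "Gm" and a number because no functional name has been given to them. Members were chosen by their measured level: the Gm symbols of the count table whose mean over the 6 libraries was at least 5 CPM (counts scaled to a library total of 1000000). Of 2821 Gm models in the table, 303 met this limit, out of 17872 genes in all. Just inside the limit were Gm14150 and Gm10146, at a mean of 5.00 and 5.00 CPM, and just outside it were Gm11473 at 4.96 CPM and Gm10175 at 4.94 CPM. The limit used only the mean level over all libraries, not the difference between the groups.

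Predicted gene models gather several kinds of sequence. Processed pseudogenes are copies of spliced mRNAs that were reverse-transcribed into the genome, so they resemble the mRNA of an expressed parent gene. Nuclear copies of mitochondrial DNA are stretches of the mitochondrial genome that were inserted into a chromosome and that can stay nearly identical to it. Long non-coding RNA models are spliced or unspliced transcripts without a recognised reading frame. For the first 2 kinds a short read can match the model and its source equally well, and the sources used here do not say how such reads were assigned.

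The libraries came from BV2, a mouse microglial cell line that was immortalised: 3 libraries labelled Tfam knockout and 3 labelled WT, all polyadenylated RNA. Tfam, which packages mitochondrial DNA and starts its transcription, was targeted with CRISPR-Cas9; the protocol, given for every sample, names continuous puromycin at 2 µg/mL after the knockout and does not say whether the WT cells received it, and the label for treatment reads none in every sample. The labels do not say if the edited line was clonal, nor if replicates were separate cultures; p-values then measure only how far these libraries spread, which may be technical. Total counts ran from 13850691 to 20889786 in the libraries labelled Tfam knockout and from 14642397 to 28418133 in WT. Tfam mRNA itself did not mark the labelled group: it had 868, 743 and 619 counts in the libraries labelled Tfam knockout, against 1098, 591 and 524 in WT, a log2 fold change of 0.14 ± 0.0869 (SE; adjusted p = 0.193, edgeR). It passed as higher when libraries were scaled by their totals (0.24, adjusted p = 0.0403, edgeR) and in the authors' log2 table (0.24, adjusted p = 0.0349, limma). Of 16 microglial and macrophage markers, 13 had counts and summed to between 2350 and 2610 CPM in the labelled knockout libraries and between 3300 and 3890 CPM in WT, while no list for astrocytes, neurons, oligodendrocytes, endothelial cells or fibroblasts summed to more than 25.5 CPM in any library. The microglial list was split. Cd68 alone had a mean of 1000 CPM in the labelled knockout libraries and 1260 CPM in WT. Aif1, Cx3cr1, Tmem119, C1qb and C1qc had group means of at most 2.97 CPM, and the rest of the 13 had group means of at least 98.8 CPM. Itgam, P2ry12 and C1qa were not among the 13. In bulk RNA of a cell line, less of an mRNA in every cell and less of it in only some cells cannot be told apart.

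All levels from here on are TMM-scaled CPM, a scaling that corrects library totals for differences in composition. A gene was called when its adjusted p in edgeR's quasi-likelihood test, adjusted over all 13403 genes tested, was below 0.05. All 303 models were tested.

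Of the known nuclear copies of mitochondrial genes, Gm10925 and Gm28437 were members; Gm13340 and Gm13341 were not analysed here. A search of the models' transcripts against those of the mitochondrial genome found 5 further members, Gm29216, Gm28661, Gm28438, Gm10222 and Gm28439. All 7 lie next to each other on the minus strand of chromosome 1, with no other annotated gene between them, in the gene order of the mitochondrial genome. Gm29216 matches the 3′ end of mt-Co1, followed by Gm28661 (mt-Co2), Gm10925 (mt-Atp6), Gm28437 (mt-Co3), Gm28438 (mt-Nd3), Gm10222 (mt-Nd4l) and Gm28439, which matches the first 876 bases of mt-Nd4. These mitochondrial genes encode subunits of cytochrome c oxidase (mt-Co1, mt-Co2, mt-Co3), of ATP synthase (mt-Atp6) and of NADH dehydrogenase (mt-Nd3, mt-Nd4l, mt-Nd4). For 5 of the 7 the annotated transcript was identical to the mitochondrial gene over its whole length: 681 bases of Gm28661, 678 of Gm10925, 783 of Gm28437, 294 of Gm10222 and 876 of Gm28439.

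Sequences are shown for the copies named at the outset, because nothing in them separates copy from source, and for the pair of copies that differ from their mitochondrial gene at 1 aligned base. They come from GENCODE release M21 transcripts (GRCm38), 5′ to 3′, and capitals mark the base that differs. Gm10925 and mt-Atp6 are given from base 1 to 60, as are Gm28437 and mt-Co3, with no difference in either pair.
Gm10925: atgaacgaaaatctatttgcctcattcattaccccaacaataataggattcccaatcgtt
mt-Atp6: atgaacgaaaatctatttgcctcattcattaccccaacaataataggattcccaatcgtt
Gm28437: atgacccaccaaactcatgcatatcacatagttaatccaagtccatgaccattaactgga
mt-Co3: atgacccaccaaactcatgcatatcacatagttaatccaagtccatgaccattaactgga
Gm28438 differs from mt-Nd3 by T3C, counted from 1 at the 5′ end of mt-Nd3, in 345 aligned bases.
Gm28438: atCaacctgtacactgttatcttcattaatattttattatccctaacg
mt-Nd3: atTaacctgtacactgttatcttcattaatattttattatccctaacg
Gm29216 differs from mt-Co1 by A1066T, counted from 1 at the 5′ end of mt-Co1, in 483 aligned bases; its first bases, before the aligned part, are left out.
Gm29216: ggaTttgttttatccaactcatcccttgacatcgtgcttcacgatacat
mt-Co1: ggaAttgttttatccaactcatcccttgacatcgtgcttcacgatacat

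All 7 copies fell in the libraries labelled Tfam knockout, against a background in which 22.9% of all tested genes were called lower. Gm10925 had 331, 214 and 249 counts in the labelled knockout libraries, against 1612, 1340 and 807 in WT. Its level was 15.1 ± 2.58 CPM in the labelled knockout libraries and 67.2 ± 17.4 CPM in WT (SD, n = 3 each), a log2 fold change of -2.16 ± 0.158 (SE; adjusted p = 9.98e-09, edgeR). The groups stood apart, with the highest labelled knockout library at 17.4 CPM and the lowest WT library at 57.1 CPM.

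Gm28437 had 379, 259 and 229 counts in the labelled knockout libraries and 1156, 958 and 780 in WT. Its level was 16.2 ± 1.53 CPM in the labelled knockout libraries and 52.9 ± 10.8 CPM in WT, a log2 fold change of -1.69 ± 0.136 (SE; adjusted p = 3.26e-08, edgeR). WT replicate 1 was the lowest of the WT libraries, at 41.1 CPM, and still lay above every labelled knockout library. Gm28661 was the most abundant copy and the most spread out, with 796, 277 and 433 counts in the labelled knockout libraries and 2345, 2409 and 1671 in WT (log2 fold change -2.09, adjusted p = 1.34e-06, edgeR).

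Gm28438, the copy with a base of its own near the 5′ end, had 393, 343 and 265 counts in the labelled knockout libraries and 1424, 986 and 785 in WT. Its level was 18.9 ± 0.685 CPM in the labelled knockout libraries and 56.8 ± 6.91 CPM in WT, a log2 fold change of -1.58 ± 0.105 (SE; adjusted p = 2.82e-09, edgeR). Its 3 labelled knockout libraries were closer together than those of any other copy.

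Gm29216 fell by 1.70 on the log2 scale and Gm28439 by 2.33, the largest decrease of the 7. Gm10222, a copy of mt-Nd4l with few counts (73, 85 and 50 in the labelled knockout libraries, 253, 168 and 83 in WT), fell by 1.13 (adjusted p = 6.48e-04, edgeR), the smallest decrease of the 7. Gm28439 and Gm10222 reached the 5 CPM limit only through the WT group. The groups did not overlap for any copy, as for 52.9% of all tested genes.

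**Figure D1:**
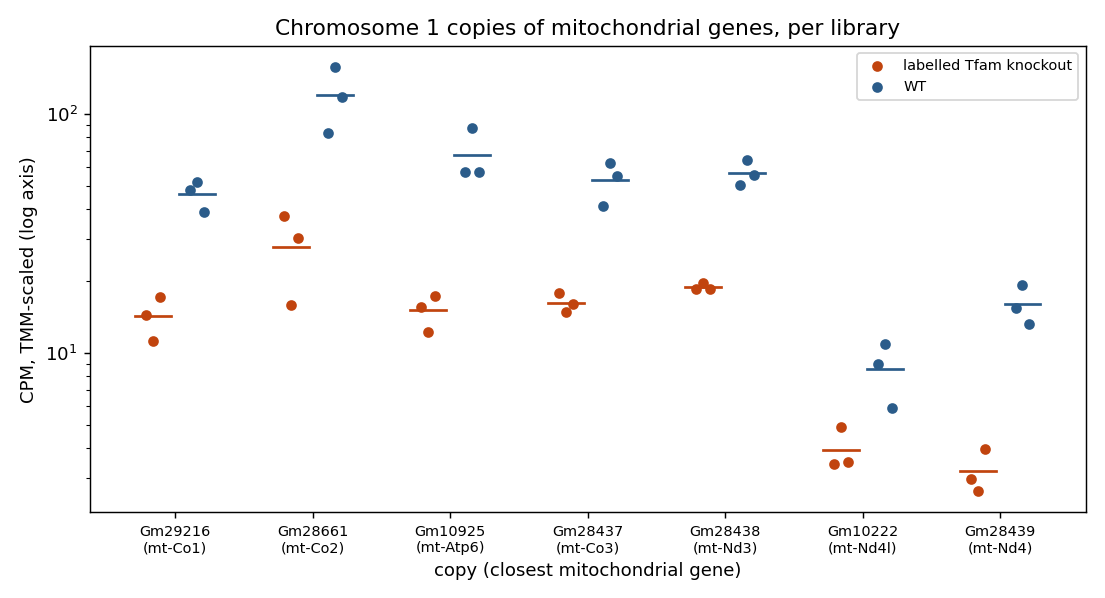
Level of each chromosome 1 copy in TMM-scaled CPM on a log axis, in the order of their mitochondrial genes; points are libraries, bars are means of 3 libraries. In each of the 7 copies the 3 labelled knockout libraries lie below the 3 WT libraries; Gm28661 is the highest copy, at 27.9 CPM in the labelled knockout libraries and 119 CPM in WT on average.

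Together the 7 copies held 0.0103% ± 0.00146 of all counts in the labelled knockout libraries and 0.0353% ± 0.00649 in WT (SD over 3 libraries each; p = 0.1 in an exact permutation test, two-sided, and no smaller p is possible with 3 against 3). For Gm10925 and Gm28437 alone the shares were 0.00324% ± 0.000325 in the labelled knockout libraries and 0.0115% ± 0.00225 in WT (exact p = 0.1). Genes of the mitochondrial genome held 1.40% ± 0.0299 in the labelled knockout libraries and 3.79% ± 0.456 in WT (exact p = 0.1). Of the counts on copies and mitochondrial genome together, the 7 copies took 0.786%, 0.600% and 0.800% in the labelled knockout libraries. In WT they took 0.849%, 0.978% and 0.932% (exact two-sided permutation p = 0.1). Copies and mitochondrial genes were both lower, the copies somewhat more so, and whether reads counted on the copies came from chromosome 1 or from mitochondrial RNA was not tested.

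Levels per length differed widely along the mitochondrial genome. The 5 mRNA genes that are matched over nearly their whole length (mt-Co2, mt-Atp6, mt-Co3, mt-Nd3 and mt-Nd4l) had a median of 30.6 CPM per kb in the labelled knockout libraries and 97.5 CPM per kb in WT. Of the 6 mRNA genes with no copy among the members, the 5 that were tested (mt-Nd1, mt-Nd2, mt-Nd5, mt-Nd6 and mt-Cytb) had a median of 387 CPM per kb in the labelled knockout libraries and 1485 CPM per kb in WT. In WT the highest of the first 5 was mt-Co2 at 257 CPM per kb, and the lowest of the second 5 was mt-Nd6 at 891 CPM per kb. mt-Co1 and mt-Nd4, matched over 31.3% and 63.6% of their length, stood with the second 5 or above them, at 15100 and 1463 CPM per kb in WT. The sixth, mt-Atp8, has no copy among the members but lies between mt-Co2 and mt-Atp6, which both have one. Whether the chromosome 1 stretch also holds its sequence was not tested. mt-Atp8 was lower per length than every matched gene, at 1.28 CPM per kb in the labelled knockout libraries and 4.11 CPM per kb in WT. It had 7, 3 and 4 counts in the labelled knockout libraries and 14, 19 and 11 in WT, too few to be tested.

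The log2 fold changes of both sets overlapped. The 5 genes matched over nearly their whole length had log2 fold changes between -2.48 and -1.67, with a median of -2.01. The 5 tested genes with no copy among the members had log2 fold changes between -2.43 and -1.72, with a median of -1.83. The copies ran from -2.33 to -1.13, with a median of -1.70.

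**Figure D2:**
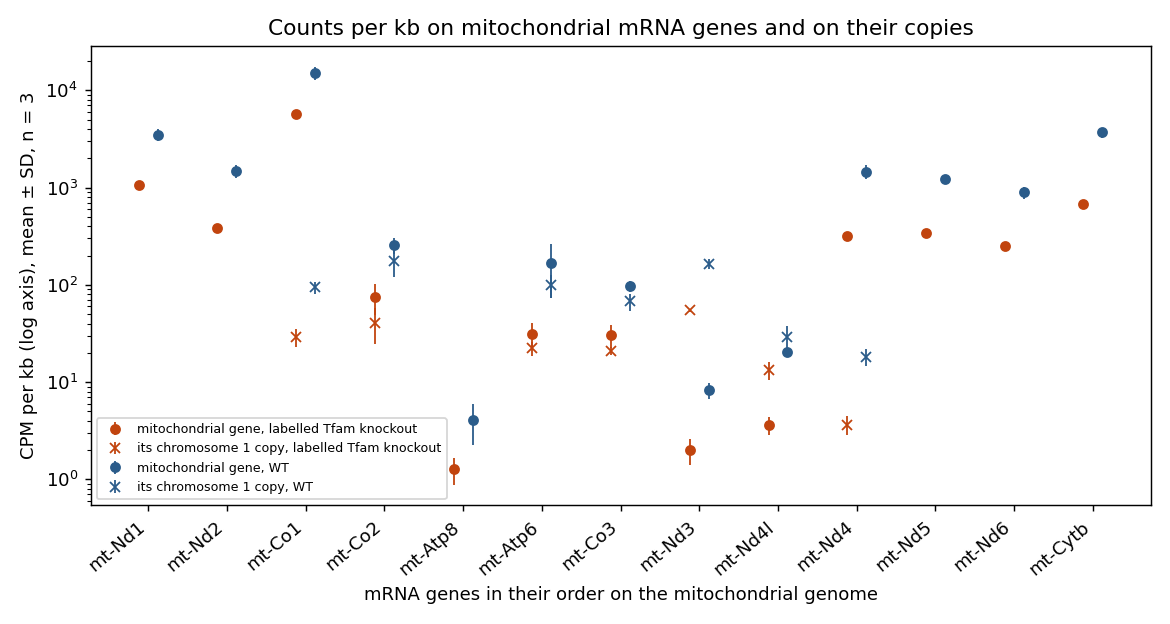
CPM per kb (log axis; mean ± SD, n = 3) of the 13 mitochondrial mRNA genes in genome order (circles) and of their chromosome 1 copies (crosses). From mt-Co2 to mt-Nd4l the genes lie between 1.28 and 75.1 CPM per kb in the labelled knockout libraries and between 4.11 and 257 CPM per kb in WT, below every other mRNA gene, and there the copies lie between 13.4 and 54.8 CPM per kb in the labelled knockout libraries and between 29.3 and 175.5 CPM per kb in WT.

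Within a library, the ratio of a copy to its mitochondrial gene does not depend on how libraries are scaled. Gm10925 took 38.7%, 46.0% and 40.9% of the counts of the pair with mt-Atp6 in the labelled knockout libraries, and 42.0%, 31.5% and 43.2% in WT. Gm28437 took 38.2%, 47.1% and 37.9% of the pair with mt-Co3 in the labelled knockout libraries, and 32.1%, 45.04% and 45.5% in WT. The mean log2 ratio differed between the labelled knockout libraries and WT by 0.18 for Gm10925 and by 0.02 for Gm28437 (exact two-sided permutation p = 0.7 and 1.0), less than the SD within either group, and both differences turned sign when a library was left out.

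Gm28438 took nearly all counts of its pair, 95.4%, 96.6% and 97.4% in the labelled knockout libraries and 95.2%, 94.8% and 95.5% in WT, although the annotated sequences differ at only 1 base. Its partner mt-Nd3 had few counts: 19, 12 and 7 in the labelled knockout libraries and 71, 54 and 37 in WT. Gm29216 took between 0.127% and 0.199% of the counts of its pair in the labelled knockout libraries and between 0.177% and 0.231% in WT. Of the 7 copies, only Gm10222 had a ratio whose values did not overlap between the groups. Its share was 73.0%, 81.7% and 80.7% in the labelled knockout libraries and 58.0%, 64.9% and 50.6% in WT. The difference was 1.42 in log2 ratio (exact permutation p = 0.1, and 0.467 adjusted over the 7 copies). Its partner mt-Nd4l had 27, 19 and 12 counts in the labelled knockout libraries and 183, 91 and 81 in WT, so this ratio rests on few counts.

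Of all 303 models, 67 rose and 76 fell in the libraries labelled Tfam knockout and 160 did not pass, so 47.2% were called, against 44.2% of all 13403 tested genes (21.3% higher and 22.9% lower). The share of models called is therefore near the background. That background was not matched for level: it includes tested genes below 5 CPM, and of the tested Gm models below 5 CPM 19.5% were called. The groups did not overlap for 156 of the 303, and for 52.9% of all tested genes, again near the background. The mean was under 5 CPM in the labelled knockout group alone for 21 members and in the WT group alone for 22; such members could enter only through the higher group, so no support is drawn from these counts. Without the copies, 67 of 296 models rose and 69 fell. Their median log2 fold change was -0.02, against a median of 0.00 over all tested genes. At a change of 2-fold or more, 14 of the 296 rose and 19 fell, against 2.97% and 5.54% of all tested genes. With library totals alone as the scaling, 77 of the 303 were higher and 67 lower, and over all tested genes the higher share of calls moved to 61.8%, against 48.2% with TMM. Together the 296 models held 0.776% ± 0.0116 of all counts in the labelled knockout libraries and 0.793% ± 0.0266 in WT (exact p = 0.4).

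By their class in GENCODE release M21, 127 of the models are long non-coding RNAs, 112 processed pseudogenes, 39 protein coding and 9 unprocessed pseudogenes other than the 7 copies; 7 await experimental proof, 1 is a small nuclear RNA and 1 had no class. Of long non-coding models, 40 of 127 (31.5%) rose and 30 (23.6%) fell (median log2 fold change 0.10), against 21.3% and 22.9% of all tested genes. Of processed pseudogenes, 17 of 112 (15.2%) rose and 25 (22.3%) fell (median -0.02). Of protein coding models, 5 of 39 (12.8%) rose and 10 (25.6%) fell (median -0.07). Differences between the classes were not tested. With library totals, 21 processed pseudogenes rose and 19 fell, so the balance of that class depends on the scaling. The same holds for all tested genes, of which 3834 rose and 2372 fell with library totals.

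**Figure D3:**
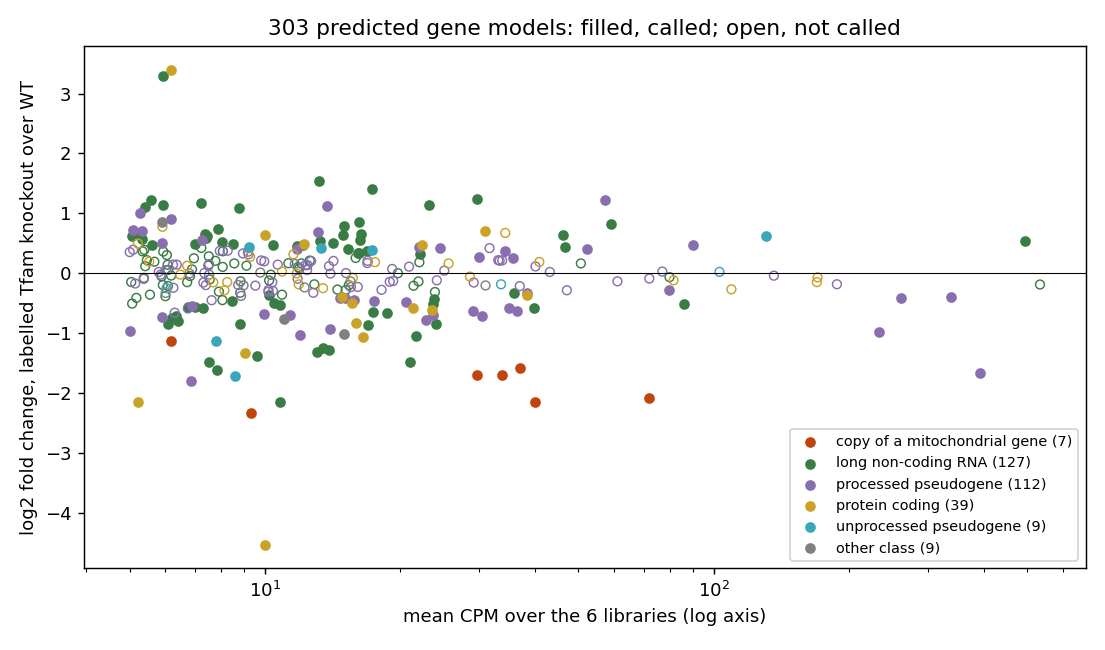
Log2 fold change (labelled Tfam knockout over WT) of each of the 303 models against its mean level in CPM (log axis), coloured by class; filled points passed the test. The 7 copies all lie between -2.33 and -1.13, while the other classes spread on both sides of 0, with Gm19410 and Gm38575 above 3 and Gm5483 below -4.

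Among the models other than copies, the largest increases were in Gm19410 and Gm38575, both of which reached the 5 CPM limit only through the labelled knockout group. Gm19410, annotated as protein coding on chromosome 8, had 186, 196 and 183 counts in the labelled knockout libraries, against 23, 17 and 18 in WT. Its level was 10.9 ± 2.01 CPM in the labelled knockout libraries and 1.07 ± 0.231 CPM in WT (SD, n = 3 each), 10.6-fold higher (log2 fold change 3.40 ± 0.241 SE; adjusted p = 6.95e-09, edgeR). Gm38575, a non-coding model on chromosome 10, had 217, 163 and 172 counts in the labelled knockout libraries and 39, 12 and 12 in WT, 9.81-fold higher (adjusted p = 9.17e-09, edgeR). For both, every labelled knockout library lay far above every WT library. The next largest increases were smaller: the other 8 of the 10 ran from 2.20-fold (Gm48226) to 2.92-fold (Gm14164).

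Gm14164 on chromosome 2 shares exon bases with Nrsn2; its nearest coding gene among those with counts here is Trib3, a pseudokinase gene known to be induced by cellular stress. Gm14164 had 16.4, 22.7 and 18.9 CPM in the labelled knockout libraries and 6.36, 6.19 and 7.36 CPM in WT, and Trib3 rose too, at 249 ± 25.3 CPM in the labelled knockout libraries and 102 ± 15.4 CPM in WT (log2 fold change 1.29). Gm9320 is a transcribed pseudogene of the ribosomal protein gene Rps24 next to Tgif1, a homeobox repressor of TGF-beta signalling. It had 68.1, 94.5 and 74.9 CPM in the labelled knockout libraries and 35.3, 33.7 and 32.3 CPM in WT. Its direction was that of its neighbour Tgif1 (log2 fold change 1.08) and not that of Rps24 (-0.33, adjusted p = 0.0209, edgeR).

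The remaining increases by size were Gm32856 (2.64-fold), Gm20559 (2.36-fold), Gm28710 (2.34-fold), Gm16091 (2.25-fold) and Gm32089 (2.22-fold), beside Gm48226. Of these, Gm28710, Gm16091 and Gm32089 also had a mean under 5 CPM in WT. The 10 increases and 10 decreases were taken from calls whose groups do not overlap. Of the 10, Gm14164, Gm20559, Gm9320 and Gm48226 share exon bases with a gene on the opposite strand (Nrsn2, Gm43198, Gm26510 and Gphn). The library kit does not mark strand, so reads of the partners cannot be told apart and these 4 values are uncertain.

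Gm5483 had the largest decrease of all members, and it reached the 5 CPM limit only through the WT group. It is annotated as protein coding on chromosome 16, in the region of the stefin A genes, which encode inhibitors of cysteine proteases. It had 23, 6 and 16 counts in the labelled knockout libraries, against 410, 357 and 310 in WT, or 0.849 ± 0.437 CPM in the labelled knockout libraries and 19.9 ± 4.68 CPM in WT (SD, n = 3 each), a log2 fold change of -4.53 ± 0.277 (SE; adjusted p = 1.02e-09, edgeR). Its nearest coding gene among those with counts here, 2010005H15Rik, fell by 2.84, at 6.26 ± 1.94 CPM in the labelled knockout libraries and 45.4 ± 10.8 CPM in WT.

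Of the 10 largest decreases, 5 were mitochondrial copies (Gm28439, Gm10925, Gm28661, Gm29216 and Gm28437). Besides Gm5483 the others were Gm9530, Gm20219, Gm7665 and Gm6325, all with a mean under 5 CPM in the labelled knockout group. The long non-coding Gm9530 on chromosome 1 had 4.82, 3.33 and 3.91 CPM in the labelled knockout libraries and 15.7, 18.4 and 20.4 CPM in WT (log2 fold change -2.16, adjusted p = 2.06e-08, edgeR). Gm20219, a protein coding model on chromosome 17, fell by 2.14, with 27, 35 and 39 counts in the labelled knockout libraries and 217, 126 and 143 in WT. Gm7665, a processed pseudogene of the calcium-binding protein gene S100a11, fell by 1.79, and S100a11 fell by 1.87. Gm6325, an unprocessed pseudogene on the X chromosome whose closest gene is Fnd3c2, fell by 1.72.

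**Figure D4:**
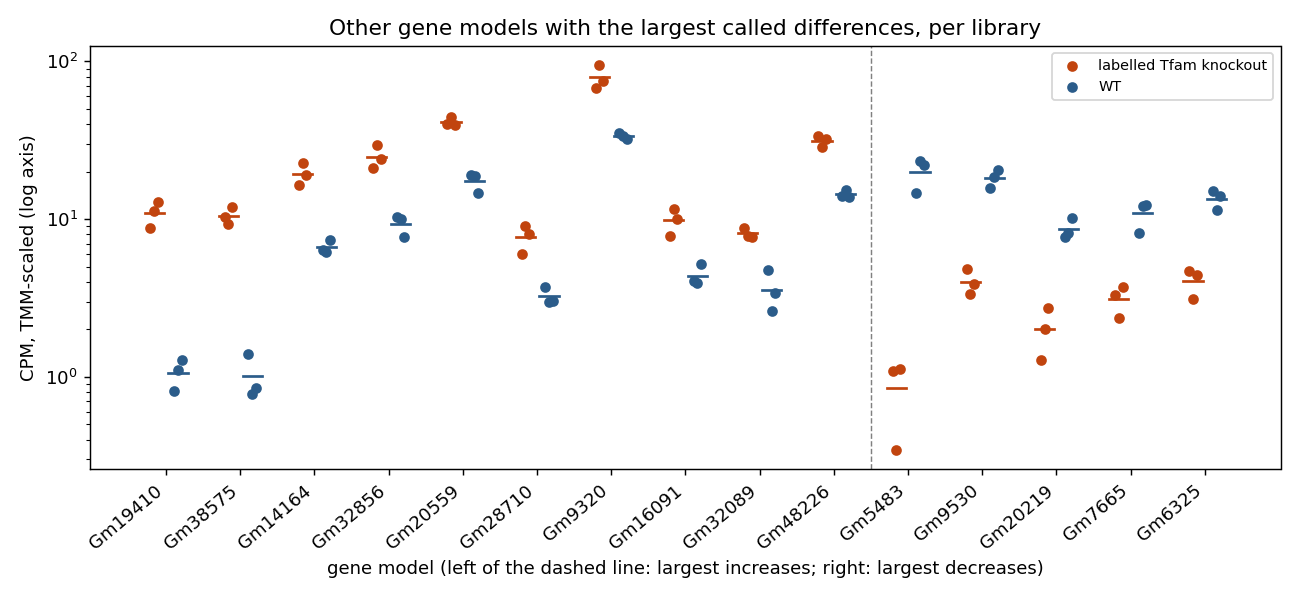
Levels in TMM-scaled CPM (log axis) of the 15 models other than mitochondrial copies among the 10 largest increases (left of the dashed line) and 10 largest decreases (right); points are libraries, bars are means of 3 libraries. Models were chosen for groups that do not overlap; Gm19410 and Gm38575 show the widest gap on the left and Gm5483 on the right.

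The glycolytic enzyme gene Gapdh has 4 close models among the members, all processed pseudogenes. The most abundant, Gm5559, lies on chromosome 5 and differs from the Gapdh coding sequence by T385A, counted from 1 at the A of the Gapdh start codon, in 1002 aligned bases with no gap. Bases 355 to 414 are shown, from GENCODE release M21, 5′ to 3′, with the differing base in capitals.
Gm5559: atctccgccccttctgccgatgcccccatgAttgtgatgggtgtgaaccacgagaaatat
Gapdh: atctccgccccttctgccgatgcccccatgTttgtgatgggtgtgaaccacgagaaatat

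Gm5559 had 4560, 3051 and 2704 counts in the labelled knockout libraries, against 12110, 11471 and 9255 in WT. Per length, more counts were assigned to Gm5559 than to Gapdh itself: 193 CPM per kb against 87.6 CPM per kb for Gapdh in the labelled knockout libraries, and 610 against 197 CPM per kb in WT. The pair differs at 1 of 1002 aligned bases, and how reads were assigned between them is not known. The level of each is therefore uncertain. Gm5559 fell by 1.66 ± 0.145 on the log2 scale (adjusted p = 8.94e-08, edgeR) and Gapdh by 1.17 ± 0.0885 (adjusted p = 1.53e-08, edgeR). WT replicate 1 was the lowest WT library for Gm5559, at 430 CPM, and remained above the highest labelled knockout library, at 215 CPM.

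The other 3 models closest to Gapdh did not all move alike. Gm7336, 99.8% identical, fell by 0.97, at 160 ± 14.5 CPM in the labelled knockout libraries and 314 ± 17.2 CPM in WT. Gm12070, 99.9% identical, fell by 1.04. Gm5345, only 90.8% identical to Gapdh, rose by 0.69, with 15.7, 16.3 and 16.5 CPM in the labelled knockout libraries and 10.7, 9.45 and 9.70 CPM in WT (adjusted p = 2.66e-04, edgeR).

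For models with a close coding relative, the correlation of the fold changes was highest at the highest sequence identity. Of 296 models, 148 matched a named coding gene at 80% identity or more over at least 50% of their length, and for 128 of these the gene was tested. Across the 128 models, Pearson's r between the log2 fold change of the model and of its closest gene was 0.718 and Spearman's rho was 0.707. The values were 0.835 and 0.844 over the 72 models at 99% identity or more, 0.592 and 0.451 over the 45 at 95% to under 99%, and 0.557 and -0.00917 over the 11 under 95%. These are descriptions across genes of the same 6 libraries, where a model and its relative share sequence, and some models share a relative (102 distinct genes), so the points are not independent.

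Where both model and closest gene were called, 32 of 34 pairs had the same direction, among them all 24 at 99% identity or more. The exceptions were Gm5345 with Gapdh and Gm9320 with Rps24. Pairs with the same direction included Gm9844 (-1.34) with the actin-binding thymosin gene Tmsb10 (-1.23), and Gm4737 (0.70) and Gm9826 (1.01) with Ahcy (0.64), the hydrolase of S-adenosylhomocysteine. Gm8995 rose by 0.63, with its closest gene Gvin1 (0.90), an interferon-inducible GTPase gene. Per length, 17 of the 128 models stood above their closest gene in the labelled knockout libraries and 19 in WT. How reads were assigned between a model and its relative is not known, so these levels are uncertain.

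**Figure D5:**
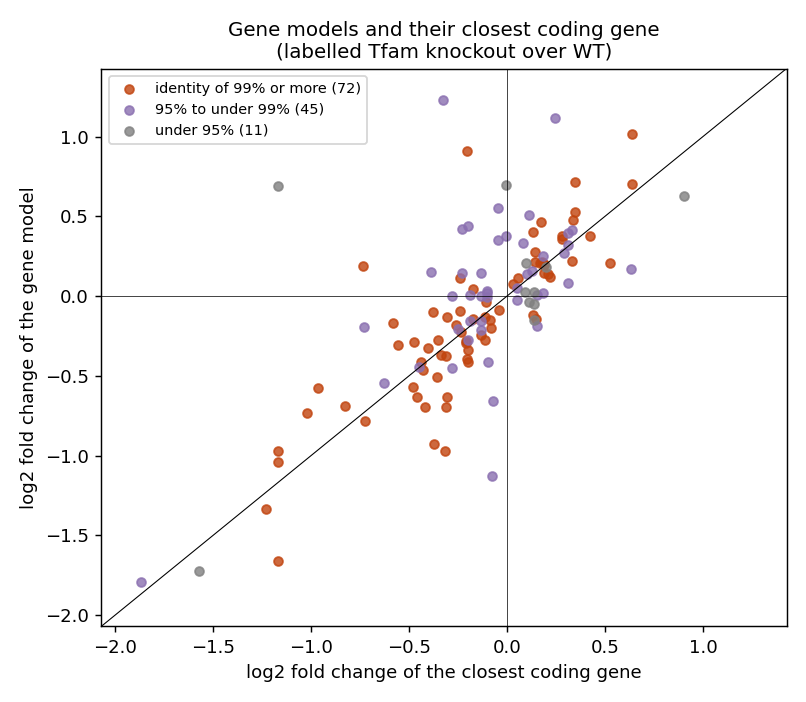
Log2 fold change (labelled Tfam knockout over WT) of 128 gene models against that of their closest coding gene, coloured by sequence identity; the diagonal marks equal change. The correlation was highest among models at 99% identity or more (Pearson's r of 0.835). Gm9320 (1.23 against -0.33 for Rps24) and Gm5345 (0.69 against -1.17 for Gapdh) lie far from the diagonal.

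Pseudogenes of cytosolic ribosomal proteins, the proteins of the translating ribosome, made up 35 of the 112 processed pseudogenes. Of these, 10 (28.6%) fell and 3 (8.57%) rose, against 22.9% and 21.3% of all tested genes, so the share called was not above the background (median log2 fold change -0.20). Of the 79 ribosomal protein genes tested, 41 (51.9%) fell (median -0.28). With library totals 6 pseudogenes fell and 3 rose, and 31 genes fell and 1 rose. Under that scaling 2372 of all 13403 tested genes fell and 3834 rose. The summed level of the 35 pseudogenes was 1567, 1229 and 1451 CPM in the labelled knockout libraries and 1433, 1803 and 1666 CPM in WT, so the groups overlapped. WT replicate 1 was the lowest WT library and labelled knockout replicate 2 the lowest of its group, as they were for the summed ribosomal protein genes (77250, 62180 and 70820 CPM in the labelled knockout libraries, 71660, 92260 and 85250 CPM in WT). The 3 that rose were Gm9320, Gm11425 and Gm14276. The 4 pseudogenes of the nucleolar gene Npm1 did not pass, with log2 fold changes of -0.21 (Gm14681), -0.15 (Gm9118), 0.14 (Gm6477) and -0.0018 (Gm5611), nor did Npm1 (-0.13, adjusted p = 0.285, edgeR).

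Long non-coding models were set beside their nearest coding gene among those with counts here, Gm models left out. Distances were taken from GRCm38, another build than the GRCm39 that the submitters' processing notes name. Of 67 long non-coding models whose nearest such gene was tested and lay within 10 kb, 21 were called together with that gene, 18 of them in the same direction, and across the 67 Pearson's r of the log2 fold changes was 0.413 and Spearman's rho was 0.371. Over the 52 models whose nearest such gene was tested and lay farther away, r was 0.195 and rho 0.294, with 10 of 13 pairs in the same direction. Genes that overlap a model were counted as within 10 kb, such as Gphn, which shares exon bases with Gm48226. The libraries do not mark strand, so reads of such pairs cannot be told apart. No share over other gene pairs is given here, so these pair counts have no background beside them. These are again descriptions across genes of the same libraries.

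The next pairs were chosen after their values were seen. Gm12708, beside the AP-1 transcription factor gene Jun, had 7.63 ± 0.265 CPM in the labelled knockout libraries and 19.0 ± 2.44 CPM in WT (log2 fold change -1.31), and Jun fell by 1.20. Gm9530 and Gm29282 (-1.48) both have the immediate early gene Ier5 as their nearest such gene, which fell by 0.60. Gm26813 fell by 1.61 beside Fzd7 (-0.97), a Wnt receptor gene. Gm15943, annotated as antisense and overlapping Klhl38 on the opposite strand, fell by 1.24 near Fbxo32 (-1.15), a ubiquitin ligase adaptor gene. Each of these models and neighbours was called (adjusted p of 4.46e-05 or below, edgeR).

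The 6 most abundant models together made up 25.7% of the summed member CPM in the labelled knockout libraries and 30.1% in WT. Gm26837 was the highest by its mean over all libraries, with 446, 592 and 462 CPM in the labelled knockout libraries and 555, 590 and 564 CPM in WT. It did not pass (log2 fold change -0.19, adjusted p = 0.13, edgeR), and its groups overlapped. Gm26837 shares 1435 exon bases with Gm12626 on the opposite strand. Its longest transcript is also 96.0% identical to the coding gene Pabpc4 over 98.6% of its length, so its counts are uncertain. Without labelled knockout replicate 2 Gm26837 passed as lower (-0.33, adjusted p = 0.00353, edgeR). Gm26917, a long non-coding model on chromosome 17, rose 1.46-fold, with 582, 577 and 586 CPM in the labelled knockout libraries and 423, 373 and 402 CPM in WT (adjusted p = 2.28e-05, edgeR). Gm26917 was listed in planning as a model that overlaps ribosomal RNA. Whether its reads came from ribosomal RNA was not tested, so its counts are uncertain too.

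The other 4 of the most abundant were the Gapdh pseudogenes Gm5559 and Gm7336 and the ribosomal protein pseudogenes Gm10275 and Gm9794. Gm10275 is identical to Rpl12 over its matched part and Gm9794 is 99.8% identical to Rpl23. Gm10275 had 336, 254 and 295 CPM in the labelled knockout libraries and 320, 453 and 390 CPM in WT, so the groups overlapped (log2 fold change -0.39, adjusted p = 0.01, edgeR). Gm9794 had 248, 199 and 230 CPM in the labelled knockout libraries and 238, 346 and 320 CPM in WT (-0.41, adjusted p = 0.00712, edgeR). Without WT replicate 2 neither passed (adjusted p = 0.0858 and 0.06, edgeR).

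The highest library of a group was over 2-fold above its lowest in 17 models for the labelled knockout group and in 9 for WT. The highest of the 3 labelled knockout libraries was a median of 1.31 times the lowest over the 303 models, and the highest of the 3 WT libraries 1.26 times the lowest. The widest spreads, named after their values were seen, were in the labelled knockout group, where replicate 3 was the highest: Gm10800 had 34.2, 15.5 and 76.7 CPM, Gm21738 had 6.04, 2.59 and 13.7 CPM, and Gm12751 had 7.65, 5.06 and 22.0 CPM. None of these 3 passed the test. Without labelled knockout replicate 2, Gm10800 and Gm21738 passed as higher (adjusted p = 0.00271 and 0.00311, edgeR), and without replicate 3 Gm12751 passed as lower (adjusted p = 0.0131, edgeR). Gm18562, called lower by 1.13 with overlapping groups and overlapping Gm7040 on the opposite strand, lost its call with DESeq2 (adjusted p = 0.149) and without WT replicate 1 (adjusted p = 0.0543, edgeR).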

How the data were processed

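Polyadenylated RNA of 6 BV2 libraries (3 labelled Tfam knockout, 3 WT) was made into unstranded libraries with a NEBNext Ultra RNA kit, per the labels' protocols. The tools named in the submitters' processing notes are bcl2fastq 2.17, HISAT2 2.1.0, SAMtools 1.9 and featureCounts 2.0.0, on GRCm39; how reads with several matches were treated is not given in those notes or the labels. The authors deposited raw read counts, whole numbers with no normalization, and a second table of log2 values, each equal, from the values, to log2 of the count scaled to a common total, plus 8.

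For the tests, edgeR 4.0.16 was run in R 4.3.3 (filterByExpr, TMM, quasi-likelihood test, no covariates, Benjamini-Hochberg adjustment over 13403 genes; 4469 genes with low counts were not tested). Each SE is the size of the log2 fold change divided by the root of its F statistic. The members, lists and tests were chosen with earlier results of these data known. Named models are Gm10925, Gm28437, the 10 largest called increases and decreases without group overlap, the 6 most abundant, and those nearest the 5 CPM limit; others were chosen after their values were seen. Closest genes came from BLAST 2.17.0 on GENCODE M21 transcripts (90% identity for mitochondrial genes, 80% for coding genes, over at least 50% of the longest transcript); 302 of 303 symbols matched. M21 is on GRCm38, so no coordinates are given. Of the members, 67 share exon bases with another gene, 44 of them chiefly on the opposite strand. Alternatives were DESeq2 1.42.0, limma 3.58.1 on the log2 table, other scalings and filters, the replicate number as a block, other membership limits and each library left out.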

Additional observations from a re-analysis of the deposited data

How the results depend on the processing

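All 7 copies were called lower under each of the alternatives that tested them. The count of members called higher was between 62 and 80, and of those called lower between 65 and 77, across DESeq2, limma on the authors' log2 table, other scalings and other filters, against 67 and 76; leaving out each library gave 49 to 63 higher and 59 to 81 lower. The median log2 fold change of members outside the named copies was -0.02 and turned to 0.07 with library totals and 0.06 with limma on the log2 table. At membership limits of 2 and 10 CPM, 37.0% of 605 and 53.4% of 176 models were called. No share over all genes at these limits is given here, so these values have no background beside them. Same-numbered libraries were not paired by their deviations (correlations of -0.104, -0.114 and 0.0395), and with the replicate number as a block 62 members were higher and 72 lower, 133 of them called in both fits.

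With each library left out, the difference in log2 ratio of copy to mitochondrial gene ran from -0.04493 to 0.3166 for Gm10925, from -0.2529 to 0.1574 for Gm28437 and from -0.3421 to 0.01247 for Gm28439; the cause of the turns in sign was not tested. The direction also turned, in models that did not pass, for Gm14150 (range -0.1123 to 0.6107 with a library left out), Gm10800 (-0.06343 to 1.071) and Gm12751 (-1.146 to 0.3204, with 0.03243 without labelled knockout replicate 2). Models near 5 CPM rest on few counts (43 to 92 per labelled knockout library for Gm10146), which limits their precision, and 3 libraries against 3 cannot give an exact permutation p below 0.1.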
